A study of Mus musculus with 7 samples.

Results

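Expression of 8 genes that handle cholesterol and lipoproteins was examined in aged mouse retinal pigment epithelium (RPE), a sheet of pigmented cells behind the retina that nourishes the photoreceptors. The genes were taken by symbol from a count table of 21861 rows: Apoe, Abca1, Abcg1, Nr1h2, Nr1h3, Scarb1, Lpl and Srebf2. All 8 were found, and all 8 passed the filter on low counts. The 7 libraries came from RPE collected 12 weeks after an adeno-associated virus (AAV) treatment, 3 after AAV-GFP and 4 after AAV-GSTA4. GSTA4 is an enzyme that detoxifies aldehydes formed from oxidised lipids, and GFP is a fluorescent protein whose vector served as the control. Strain, sex, age in months, vector dose and the promoter driving each transgene are not given in the sources used here, and neither is the number of animals behind a library. All p-values therefore measure the spread between these libraries, which may be partly technical.

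The RPE takes up shed outer segment membrane and lipoproteins, and returns cholesterol to the circulation as lipoprotein particles. ApoE is the protein scaffold of such particles. ABCA1 and ABCG1 are membrane transporters that load them with cholesterol, SR-BI (the product of Scarb1) exchanges cholesterol with high-density lipoprotein, and lipoprotein lipase (Lpl) releases fatty acids from triglyceride. The liver X receptors LXRalpha (Nr1h3) and LXRbeta (Nr1h2) sense oxysterols and switch on efflux genes such as Abca1, Abcg1 and Apoe, whereas SREBP2 (Srebf2) switches on synthesis and uptake when sterols are scarce.

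Library totals ran from 15329181 to 28998964 counts. AAV-GFP replicate 3 stood apart, with a mean correlation with the other libraries of 0.838 in log2 CPM (counts scaled to a common library size), against 0.910 to 0.926 for the rest. All 13 RPE markers were detected, and their summed level was 23362 to 71294 CPM in AAV-GFP and 62065 to 110345 CPM in AAV-GSTA4. AAV-GFP replicate 3 had the lowest sum. From AAV-GFP to AAV-GSTA4, 10 of the 13 had a positive log2 fold change and 3 a negative one, with a median of 0.59. Of all genes tested 44.6% had a positive one. Best1, an RPE chloride channel gene, was the weakest at a mean of 2.38 CPM. The human transgene row hGSTA4 had 1 to 3 counts in the AAV-GFP libraries and 4209, 5239, 45 and 1184 counts in the AAV-GSTA4 libraries in replicate order, so the library labelled replicate 3 held little transgene RNA. Counts of the GFP transgene, d2EGFP, were 99, 3970 and 2361 in the control libraries and 163, 64, 7 and 26 in AAV-GSTA4, so the library labelled AAV-GFP replicate 1 lay below AAV-GSTA4 replicate 1. CPM values here are scaled by trimmed mean (TMM) factors unless a library total is named.

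In the AAV-GSTA4 libraries Apoe and Abca1 were higher and Abcg1 was lower than in the AAV-GFP libraries, with no overlap between the groups for any of the 3. The fitted differences were 1.70-fold for Apoe and 1.83-fold for Abca1, and Abcg1 was 1.91-fold higher in AAV-GFP. Lpl was lower in AAV-GSTA4 with a slight overlap. Scarb1, Nr1h2, Nr1h3 and Srebf2 differed by less than their standard errors. The edgeR quasi-likelihood test, adjusted by Benjamini-Hochberg over 15075 genes with a threshold of 0.05, called none of the 8, and the share of all genes called was 0.0%. DESeq2 called none of the 8 either, although it called 1.27% of its 9423 genes as higher and 0.87% as lower. A missed call at this number of libraries does not show that a gene did not differ.

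At an unadjusted p-value under 0.05 in edgeR, 2 of the 8 genes were higher and 1 was lower, against 5.27% and 6.63% of all genes tested. DESeq2 placed the same 3 genes under that level. Abca1 and Abcg1 stayed under it in 17 of 18 alternatives and Apoe in 6, losing it with library totals, without the filter, with either replicate block, with Y-linked class or rod marker level as covariate, and with any library but AAV-GSTA4 replicate 2 left out. Lpl was under that unadjusted level in 6 alternatives and Scarb1 in 2, though neither was in the main fit. The groups did not overlap in the higher direction for 2 of the 8 and in the lower direction for 1 of the 8, against 6.44% and 5.61% of all genes tested. The median log2 fold change of the 8 was 0.09, beside -0.07 over all genes tested.

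**Figure D1:**
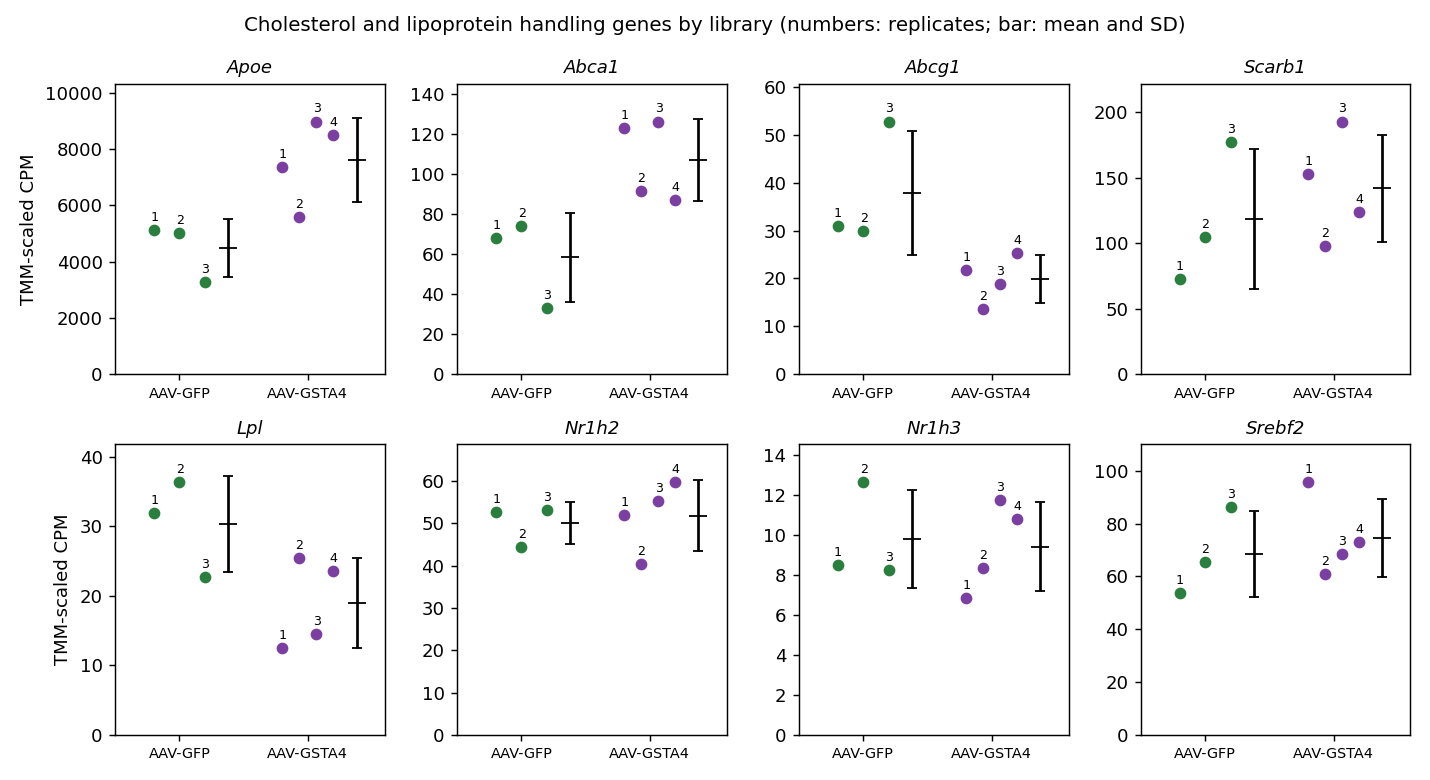
TMM-scaled CPM (vertical axes, starting at 0) of the 8 genes in each library, with AAV-GFP in green, AAV-GSTA4 in purple, replicate numbers beside the points, and bars for the mean and SD. The 4 AAV-GSTA4 points lie above the 3 AAV-GFP points for Apoe and Abca1 and below them for Abcg1.

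Apoe encodes the apolipoprotein that the RPE secretes toward its basement membrane, and it was the most abundant of the 8. It was at 5106, 5030.5 and 3289 CPM in the AAV-GFP libraries, in replicate order as throughout, and at 7356, 5589.7, 8975 and 8485 CPM after AAV-GSTA4. AAV-GFP replicate 3 was the lowest library, and AAV-GSTA4 replicate 2 lay nearest to the controls. The means were 4475 CPM ± 1028 (SD, n = 3) and 7602 CPM ± 1503 (SD, n = 4). The log2 fold change was 0.76 ± 0.34 (SE), with adjusted p = 0.413 in edgeR and 0.0941 in DESeq2. The exact permutation test on log2 CPM, two-sided over 35 relabellings, gave p = 0.0571, where the smallest value that 3 against 4 libraries can reach is 0.0286.

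The separation of the Apoe groups depended on the scaling. Relative to the library total, Apoe took 0.505%, 0.527% and 0.447% of counts in AAV-GFP and 0.7103%, 0.506%, 0.779% and 0.794% in AAV-GSTA4, so that AAV-GSTA4 replicate 2 fell among the controls. The fitted log2 difference was then 0.50. The AAV-GSTA4 library with the highest Apoe level, replicate 3, was also the library of its group with the fewest hGSTA4 counts. On chromosome 7 of GRCm38, GENCODE M21 places Apoe at 19696109 to 19699188 on the minus strand. The efflux and uptake genes lie elsewhere in the genome: Abca1 (chromosome 4, 53030787 to 53159895, minus strand), Abcg1 (chromosome 17, 31057675 to 31117988, plus strand), Scarb1 (chromosome 5, 125277087 to 125341094, minus strand) and Lpl (chromosome 8, 68880491 to 68907448, plus strand). The regulators are Nr1h2 (chromosome 7, 44549616 to 44553951, minus strand), Nr1h3 (chromosome 2, 91184061 to 91202834, minus strand) and Srebf2 (chromosome 15, 82147181 to 82205379, plus strand).

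Abca1 encodes the transporter that starts a new lipoprotein particle by passing cholesterol and phospholipid to lipid-poor apolipoproteins. It was at 68.3, 74.1 and 33.0 CPM in AAV-GFP and at 123, 91.6, 126 and 87.3 CPM in AAV-GSTA4. All 4 AAV-GSTA4 libraries lay above the controls, and AAV-GFP replicate 3 was again the lowest. The means were 58.4 CPM ± 22.2 (SD, n = 3) and 107 CPM ± 20.6 (SD, n = 4). The fitted log2 difference was 0.87 ± 0.31 (SE), with adjusted p = 0.373 in edgeR and 0.129 in DESeq2. In the exact permutation test p was 0.0286, the lowest value this design allows. The groups also stayed apart relative to library totals, at 44.9 to 77.7 CPM in AAV-GFP and 81.7 to 119 CPM in AAV-GSTA4. How many of all genes are apart on that scale is not given here.

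The start of Abca1 is shown because it holds the kind of site through which LXR is known to act on this gene. Promoter windows of 300 bases from RefSeq (GRCm38.p6), from 250 bases before to 50 after a start, were matched for 5 of the 8 genes and searched on both strands. An LXR response element of the DR4 type, which is a repeat of nuclear receptor half-sites with 4 bases between them, was matched in the Abca1 window from 67 to 52 bases upstream of the GENCODE start, reading on the opposite strand. RefSeq also annotates a start further out, and the site lies downstream of that one. The same loose pattern was found in 62 of 32851 windows of that length, or 0.189%, and in no window of Apoe, Nr1h2, Nr1h3 or Srebf2. Its letters were chosen with the Abca1 sequence in view, so the match is a description. The site lies at chr4:53159947-53159962, and it is printed with its flanks, minus strand, 5′ to 3′, with the match in capitals.
Abca1 DR4 site: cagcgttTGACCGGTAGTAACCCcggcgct
Further upstream lies an E-box, the letters CACGTG, at chr4:53160037-53160042. It is in capitals in the stretch chr4:53159989-53160145, minus strand, which ends before the outermost start that RefSeq annotates. An E-box was present in 7.15% of all windows.
Abca1 upstream: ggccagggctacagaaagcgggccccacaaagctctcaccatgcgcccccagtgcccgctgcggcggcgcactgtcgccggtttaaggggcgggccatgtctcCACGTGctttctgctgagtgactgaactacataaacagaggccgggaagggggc

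Abcg1 encodes the companion transporter that passes cholesterol to particles already formed, and it went the other way from Abca1. It was at 30.9, 29.9 and 52.8 CPM in AAV-GFP and at 21.8, 13.6, 18.8 and 25.3 CPM in AAV-GSTA4. AAV-GFP replicate 3, lowest for Apoe and Abca1, was here the highest library. The means were 37.9 CPM ± 12.95 (SD, n = 3) and 19.9 CPM ± 4.96 (SD, n = 4). The log2 fold change was -0.93 ± 0.30 (SE), with adjusted p = 0.363 in edgeR and 0.114 in DESeq2. Its exact permutation p was 0.0286 as well. Without AAV-GFP replicate 3 the log2 fold change was -0.61 for Abcg1, 0.59 for Abca1 and 0.59 for Apoe. Without the library labelled AAV-GFP replicate 1 the values were -1.05 for Abcg1, 1.00 for Abca1 and 0.87 for Apoe, and without AAV-GSTA4 replicate 3 they were -0.90, 0.80 and 0.68. Groups that are apart with all 7 libraries stay apart when any 1 is left out. For these 3 genes that outcome was fixed and tests nothing. More of all genes are then apart, up to 12.4% higher and 11.9% lower without AAV-GFP replicate 3.

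The opposite directions of the 2 transporters can be read within each library, where no scaling between libraries enters. The ratio of Abca1 to Abcg1 counts was 2.21, 2.47 and 0.6249 in AAV-GFP and 5.67, 6.75, 6.73 and 3.45 in AAV-GSTA4. Every AAV-GSTA4 library was above every AAV-GFP library. That had to follow, because relative to library totals Abca1 was higher and Abcg1 lower without overlap. The ratio was computed after the values of both genes had been seen and is given without a test.

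Scarb1, the gene of the high-density lipoprotein receptor SR-BI, varied widely within both groups. It was at 73.0, 105 and 177 CPM in AAV-GFP and at 153, 97.9, 193 and 124 CPM in AAV-GSTA4. The groups overlapped over most of their range. Its fitted log2 difference was 0.26 ± 0.34 (SE), with adjusted p = 0.785 in edgeR. It turned to -0.12 with library totals, and with the level of rod markers in the model it became 1.27, with adjusted p = 0.547 in edgeR. Without AAV-GFP replicate 3 it was 0.67.

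Lpl, the lipase that works on triglyceride-rich lipoproteins, was at 31.9, 36.3 and 22.7 CPM in AAV-GFP and at 12.5, 25.4, 14.4 and 23.6 CPM in AAV-GSTA4. AAV-GFP replicate 3 fell below AAV-GSTA4 replicates 2 and 4, and the other control libraries lay above all 4. The means were 30.3 CPM ± 6.94 (SD, n = 3) and 19.0 CPM ± 6.46 (SD, n = 4). The log2 fold change was -0.67 ± 0.31 (SE), with adjusted p = 0.432 in edgeR and p = 0.171 in the exact permutation test. Relative to library totals the groups did not overlap, at 30.9 to 38.1 CPM in AAV-GFP and 12.1 to 22.98 CPM in AAV-GSTA4. On that scale genes at large were lower too, with a median log2 fold change of -0.37 over all genes tested. Of 2390 genes at an unadjusted p-value under 0.05 in edgeR, only 268 were higher there. The share of all genes apart on that scale is not given here. With rod marker level in the model the log2 fold change was -1.33, and with macrophage marker level it was -0.27.

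The regulators had the smallest log2 fold changes of the 8 with TMM scaling, but not with library totals, where Nr1h3 was at -0.35, Nr1h2 at -0.26 and Srebf2 at -0.21, all further from 0 than Scarb1. Nr1h2, the broadly expressed LXRbeta gene, was at 52.7, 44.3 and 53.1 CPM in AAV-GFP and at 52.05, 40.3, 55.3 and 59.7 CPM in AAV-GSTA4, a log2 fold change of 0.052 ± 0.21 (SE). Nr1h3, the LXRalpha gene, was at 8.52, 12.7 and 8.25 CPM in AAV-GFP and at 6.83, 8.34, 11.7 and 10.8 CPM in AAV-GSTA4, a log2 fold change of -0.057 ± 0.33 (SE). For both receptors the groups overlapped. Adjusted p was 0.942 for Nr1h2 and 0.962 for Nr1h3 in edgeR. Nr1h3 had the fewest counts of the 8, down to 130 in a library, where counting alone carries a standard error of 8.77%. In GENCODE M21 it shares 34 exonic bases on the same strand with Gm13783, which has no row in the table.

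Srebf2, the gene of the transcription factor SREBP2, which is released when sterols are scarce, was at 53.9, 65.4 and 86.2 CPM in AAV-GFP and at 95.6, 60.9, 68.5 and 73.1 CPM in AAV-GSTA4. AAV-GSTA4 replicate 1 and AAV-GFP replicate 3 were the highest. The fitted log2 difference was 0.12 ± 0.24 (SE), with adjusted p = 0.869 in edgeR. The groups overlapped, and library totals turned the value to -0.21. SREBP2 is known to act on its own gene through a sterol regulatory element (SRE), so the Srebf2 upstream stretch is printed with the SRE core letters TCACCCCA in capitals. It lies at chr15:82147019-82147180, plus strand. The core was present in 1.56% of all windows, and among the matched genes also in an Apoe window.
Srebf2 upstream: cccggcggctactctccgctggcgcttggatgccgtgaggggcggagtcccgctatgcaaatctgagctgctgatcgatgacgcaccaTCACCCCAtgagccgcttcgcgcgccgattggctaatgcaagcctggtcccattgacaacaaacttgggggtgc

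**Figure D2:**
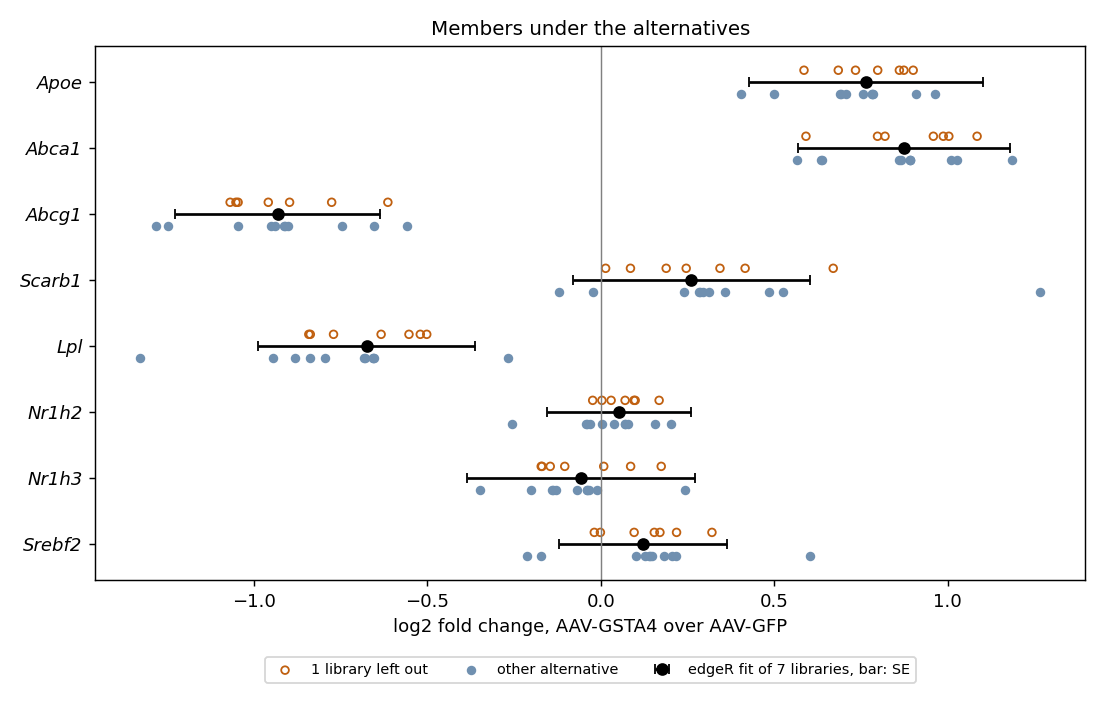
Log2 fold change of AAV-GSTA4 over AAV-GFP (horizontal axis) for the 8 genes in the edgeR fit (black, bar is the SE), with 1 library left out (open orange) and under the other alternatives (blue). Apoe and Abca1 lie above 0 and Abcg1 and Lpl below 0 in all 18 alternatives, whereas Scarb1, Nr1h2, Nr1h3 and Srebf2 fall on both sides.

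Per kilobase of annotated exon, Apoe stood far above the rest, at 2093 CPM per kb ± 481 (SD, n = 3) for the controls and 3555 CPM per kb ± 703 (SD, n = 4) after AAV-GSTA4. Nr1h2, Scarb1 and Srebf2 followed at mean levels of 14.9, 13.9 and 9.54 CPM per kb in AAV-GFP and 15.5, 16.7 and 10.4 CPM per kb in AAV-GSTA4. The ranges of these 3 genes overlapped, so their order is not firm. Abca1 and Abcg1 had means of 5.64 and 5.19 CPM per kb in AAV-GFP, which lay within their SDs of 2.14 and 1.77. In AAV-GSTA4 their mean levels were 10.3 and 2.72 CPM per kb. Nr1h3 and Lpl had means of 3.90 and 2.90 CPM per kb in AAV-GFP and 3.75 and 1.81 CPM per kb in AAV-GSTA4. Lengths were the union of GENCODE M21 exons, and transcripts in use may be shorter.

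The wider pathway was read from 6 further lists with 92 genes, of which 85 were tested. In edgeR 0 passed the adjusted threshold in either direction. At an unadjusted p-value under 0.05, 15 were higher and 0 were lower, or 17.6% and 0.0% of the 85, beside 5.27% and 6.63% of all genes tested. Their median log2 fold change was 0.20. With library totals 7 were higher and 4 lower, and the median was -0.08, beside -0.37 for all genes tested. With rod marker level in the model 9 were higher and 4 lower, and the median was 0.09, beside 0.022 for all genes tested. Over all 15075 genes tested, 2390 were under that level with library totals, and 268 of them, or 11.2%, were higher. With rod marker level 1315 were under it, and 476 of them, or 36.2%, were higher. In the main fit with TMM the share was 44.3%. Without AAV-GFP replicate 3 the counts were 15 higher and 3 lower of 87. Over all genes 1917 of 15337 were then under that level, 1037 of them higher. DESeq2 called 7 of the 92, all higher: Srebf1, Scd2, Fasn, Lrp1, Lrp2, Lrp8 and Pltp. Of the 9423 genes to which it gave an adjusted p, it called 1.27% as higher and 0.87% as lower. Several of the 92, such as Abcg5 and Apob, had no adjusted p in DESeq2 and could not be called. The 92 are thus not a like base for these shares.

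**Figure D3:**
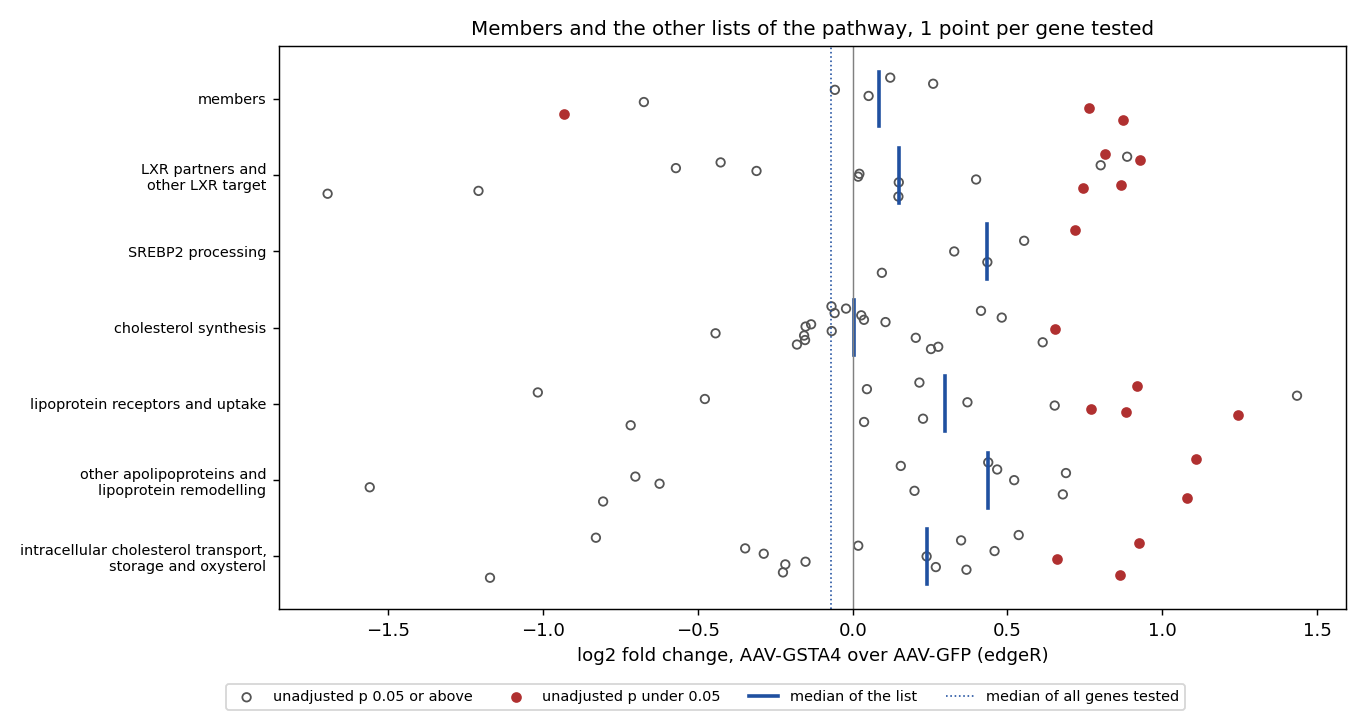
Log2 fold change in edgeR (horizontal axis) of every tested gene of the 8 members and the 6 further lists, with filled red points at an unadjusted p-value under 0.05, thick bars for list medians and a dotted line for the median of all genes. The median of cholesterol synthesis is 0.0033, and every red point except Abcg1 lies to the right of 0.

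Among LXR partners and other LXR targets, 4 of 16 tested genes were higher at that unadjusted level and 0 were lower, with a median log2 fold change of 0.15. The 4 were Srebf1, Scd2, Fasn and, named after its values were seen, Lpcat3, which act in fatty acid synthesis, desaturation and phospholipid remodelling. Srebf1, the gene of the lipogenic regulator SREBP1, was at 112, 135 and 133 CPM in AAV-GFP and at 242, 197, 262 and 192 CPM in AAV-GSTA4. All 4 AAV-GSTA4 libraries lay above the controls, with a log2 fold change of 0.82 ± 0.22 (SE) and adjusted p = 0.363 in edgeR and 0.0221 in DESeq2. Fasn, fatty acid synthase, had means of 49.7 CPM ± 2.37 (SD, n = 3) and 83.2 CPM ± 12.0 (SD, n = 4). Scd2, a fatty acid desaturase, was the most abundant of the list, with means of 288 CPM ± 21.01 (SD, n = 3) for the controls and 548 CPM ± 141 (SD, n = 4) after AAV-GSTA4. The 2 groups of Fasn and of Scd2 did not overlap, and adjusted p was 0.363 for each in edgeR and 0.0357 and 0.0320 in DESeq2.

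Lipoprotein receptors held the largest called difference in DESeq2 among these lists. Of 14 tested, 4 were higher at an unadjusted p-value under 0.05 in edgeR and 0 lower, with a median log2 fold change of 0.30. Lrp1, a large endocytic receptor that takes up ApoE-bearing particles, was at 201, 201 and 215 CPM in AAV-GFP and at 473, 299, 645 and 535 CPM in AAV-GSTA4. Every AAV-GSTA4 library was above the narrow control range, a log2 fold change of 1.25 ± 0.29 (SE) with adjusted p = 0.363 in edgeR and 0.00656 in DESeq2. The related receptors Lrp8 and Lrp2 had log2 fold changes of 0.77 ± 0.21 (SE) and 0.88 ± 0.24 (SE), and Sorl1, a sorting receptor named here after its values were seen, 0.92 ± 0.27 (SE). Adjusted p was 0.363 for each of the 3 in edgeR, and 0.0481 for Lrp8 and for Lrp2 in DESeq2. Lrpap1, the receptor chaperone and the most abundant of the list, had a log2 fold change of 0.65 ± 0.30 (SE) with adjusted p = 0.433 in edgeR, and 0.067 with rod marker level in the model.

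Cholesterol synthesis had a median log2 fold change near 0, which was 0.0033 with 10 of 20 genes on each side of 0. Hsd17b7, a late sterol reductase, was the 1 gene at an unadjusted p-value under 0.05, with a log2 fold change of 0.65 ± 0.28 (SE) and adjusted p = 0.409 in edgeR. Dhcr7 and Mvk, enzymes near the end and the start of the pathway, had log2 fold changes of 0.61 ± 0.37 (SE) and 0.48 ± 0.37 (SE). With rod marker level in the model Hsd17b7 was at 0.094, and Mvk turned to -0.13. Msmo1, a methylsterol oxidase and the most abundant of the list, had means of 246 CPM ± 152 (SD, n = 3) and 265 CPM ± 59.6 (SD, n = 4). Its fitted log2 difference of 0.11 turned to -0.94 with rod marker level in the model.

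All 5 genes that process SREBP2 had a positive log2 fold change, as did 44.6% of all genes tested. The median of the 5 was 0.44, beside -0.07 over all genes tested. Of the 5, 1 was at an unadjusted p-value under 0.05 in edgeR. That gene was Scap, the escort protein that carries SREBP2 to the Golgi, at 60.9, 67.1 and 78.1 CPM in AAV-GFP and 145, 72.1, 131 and 103 CPM in AAV-GSTA4. AAV-GSTA4 replicate 2 overlapped the controls, and the log2 fold change was 0.72 ± 0.27 (SE) with adjusted p = 0.375 in edgeR. The processing proteases Mbtps1 and Mbtps2 were at 0.33 ± 0.19 (SE) and 0.55 ± 0.31 (SE). Insig2, which retains the SREBP2 complex in the endoplasmic reticulum, was at 0.44 ± 0.27 (SE). Insig2 turned to -0.21 with rod marker level in the model, and on library totals the median of the list was 0.19, beside -0.37 over all genes tested.

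Of the other apolipoprotein and remodelling genes, 13 of 19 were tested, and 2 were higher and 0 lower at the unadjusted level, with a median log2 fold change of 0.44. Pltp, which transfers phospholipid between lipoproteins, was at 280, 356 and 354 CPM in AAV-GFP and at 902, 391, 957 and 598 CPM in AAV-GSTA4. Replicate 2 was nearest to the controls, as for Apoe. The log2 fold change of Pltp was 1.11 ± 0.34 (SE), with adjusted p = 0.363 in edgeR and 0.0456 in DESeq2. Angptl4, an inhibitor of lipoprotein lipase, had means of 6.89 CPM ± 2.26 (SD, n = 3) and 14.6 CPM ± 5.30 (SD, n = 4), opposite in direction to Lpl itself. Its groups overlapped, and adjusted p was 0.375 in edgeR. Mttp, the protein that loads lipid onto apolipoprotein B, had a log2 fold change of 0.44 ± 0.23 (SE).

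Among genes of intracellular transport, storage and oxysterol formation, 3 of 17 were higher and 0 lower at the unadjusted level, with a median log2 fold change of 0.24. Soat1, which esterifies cholesterol for storage, was at 133, 127 and 80.3 CPM in AAV-GFP and at 212, 148, 274 and 228 CPM in AAV-GSTA4. The groups did not overlap, and the log2 fold change was 0.93 ± 0.29 (SE) with adjusted p = 0.363 in edgeR and 0.0656 in DESeq2. Cyp27a1, which makes the LXR ligand 27-hydroxycholesterol, had a log2 fold change of 0.86 ± 0.31 (SE). Lipa, the lysosomal lipase that frees cholesterol from esters, was at 0.66 ± 0.29 (SE), and Npc2, a lysosomal cholesterol carrier and the most abundant of the list, at 0.46 ± 0.29 (SE). With rod marker level in the model Lipa was at 0.0094 and Npc2 at 0.084. Stard4, a cytosolic sterol carrier, was the 1 gene of the 85 whose AAV-GSTA4 libraries all lay below the controls, against 17 genes above them. Over all genes tested 5.61% lay below and 6.44% above. The count below became 6 without AAV-GFP replicate 3, 4 without AAV-GSTA4 replicate 1, 3 without AAV-GSTA4 replicate 4, and 2 without AAV-GFP replicate 1, AAV-GSTA4 replicate 2 or AAV-GSTA4 replicate 3. The count above was 17 to 25 in the 7 cases. Of all genes, 6.50% to 11.9% then lay below and 7.36% to 12.4% above. Neither count can fall when a library is left out. Stard4 was chosen after its values were seen and had a log2 fold change of -0.83 ± 0.39 (SE) and adjusted p = 0.433 in edgeR.

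Other cell types of the eye also express these genes, and in bulk tissue fewer cells of a type and less RNA per cell cannot be told apart. The 13 rod photoreceptor markers summed to 16194 to 41712 CPM in AAV-GFP and 7831 to 14474 CPM in AAV-GSTA4, without overlap, and all 13 had a negative log2 fold change. Abcg1 and the rod marker sum were both highest in AAV-GFP replicate 3, although the rod markers Gngt1 and Pdc were highest in AAV-GFP replicate 2. With rod marker level in the model, Apoe, Abca1 and Abcg1 had log2 fold changes of 0.40, 0.64 and -0.65. None of the 3 kept an unadjusted p-value under 0.05 in edgeR, whereas Scarb1 and Lpl were under it there. Beyond that covariate the part of rod markers in these results was not tested. The RPE marker sum was lowest in AAV-GFP replicate 3, as Apoe and Abca1 were. The part of RPE markers was not tested either.

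Macrophages and microglia, which use Apoe, Abca1, Nr1h3 and Lpl, had 18 markers detected, 17 of them with a negative log2 fold change. Their sums overlapped, at 1381 to 4290 CPM in AAV-GFP and 1742 to 3931 CPM in AAV-GSTA4. With their level in the model the log2 fold changes of Apoe, Abca1 and Abcg1 were 0.96, 1.18 and -1.25, and adjusted p for Abcg1 was 0.0597 in edgeR. In that fit 241 of all 15075 genes tested passed the adjusted threshold, 26 of them higher, against 0 in the main fit. The 8 Mueller glia and astrocyte markers summed to 4265 to 5921 CPM and 7871 to 11006 CPM without overlap, but Clu, which the RPE also makes, carried most of that. Without Clu the sums were 1012 to 1319 CPM and 708 to 1484 CPM. The 10 endothelial markers stayed at 39.9 to 181 CPM and 43.7 to 63.3 CPM, and the 8 fibroblast and pericyte markers at 190 to 953 CPM and 335 to 649 CPM.

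Adipocytes and muscle are rich in Lpl. The 6 adipocyte markers, of which 4 passed the filter, summed to 13.7 to 25.5 CPM in AAV-GFP and 6.38 to 19.1 CPM in AAV-GSTA4, and the 6 skeletal muscle markers to 15.2 to 86.6 CPM and 12.9 to 81.8 CPM. All 4 tested adipocyte markers and 5 of the 6 muscle markers had a negative log2 fold change, as did Lpl and 8355 of the 15075 genes tested. In both lists 0 markers were at an unadjusted p-value under 0.05 in edgeR, and the sums of the groups overlapped. No marker of these lists was at 0 in all 7 libraries. Their part in the Lpl difference was not tested.

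**Figure D4:**
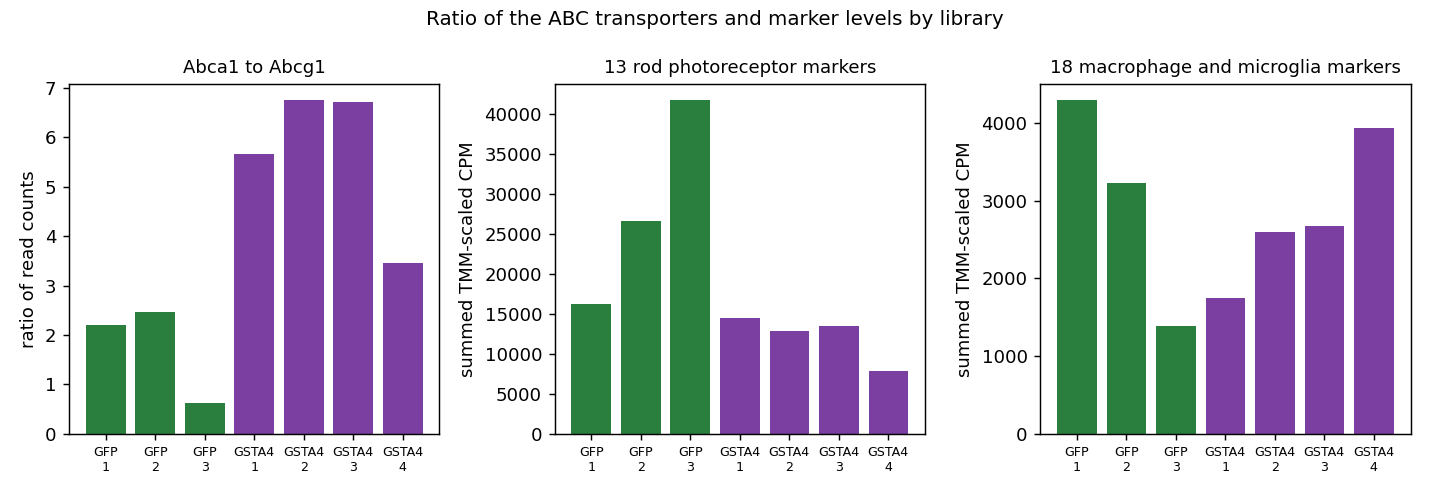
Ratio of Abca1 to Abcg1 read counts (left) and summed TMM-scaled CPM of rod (middle) and macrophage and microglia markers (right), with 1 bar per library, axes from 0, AAV-GFP in green and AAV-GSTA4 in purple. The ratio is 0.6249 to 2.47 in AAV-GFP and 3.45 to 6.75 in AAV-GSTA4, and rod markers sum to at most 14474 CPM in AAV-GSTA4.

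Y-linked transcripts were present in AAV-GFP replicate 1 and AAV-GSTA4 replicates 3 and 4, and summed to at most 2.56 CPM of the library total in the other 4, so differences were also read within these classes. The libraries with Y-linked transcripts were 1 of AAV-GFP and 2 of AAV-GSTA4. They gave log2 CPM differences of 0.77 for Apoe, 0.62 for Abca1, -0.50 for Abcg1 and -0.79 for Lpl. The libraries without, 2 of each group, gave 0.66, 1.10, -1.21 and -0.69 in the same order. The directions were alike in both classes for these 4 genes. For Apoe, Abca1 and Abcg1 that was fixed in advance, because their groups did not overlap, so it tests nothing for those 3. Scarb1 differed by 1.08 in the first class and by -0.16 in the second, Nr1h3 by 0.40 and -0.43, and Nr1h2 by 0.13 and -0.083. Differences between the classes were not tested.

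Genes whose profile over the 7 libraries was most like that of a member were sought among 7300 others whose log2 CPM averaged 4 or more, by the root-mean-square difference of centred log2 CPM. For Apoe these were Slc38a10 at 0.0561, Ndrg2 at 0.0736 and Mapk6 at 0.0747, where the median over all genes compared was 0.504. For Abca1 they were Fbn1 at 0.0843, Thbs4 at 0.103 and Sgms1 at 0.109, beside a median of 0.607. For Scarb1, Tmem108 at 0.0916 and Plekhg3 at 0.107 were among the closest, beside a median of 0.604. None of the genes named here belongs to the lists above.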

How the data were processed

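RNA was measured by polyadenylated RNA-seq of full-length amplified cDNA without molecular identifiers, per the labels' protocols, so counting errors leave out PCR copies. The authors deposited raw read counts per gene symbol, 1 column per library, and the submitters' processing notes name STAR 2.7.1a, featureCounts 1.6.2 and the builds GRCm38/mm10 and GRCh38/hg38 without saying which step used which. Annotation, strand and multi-mapping settings are not given in the sources used here. Columns were matched by library name, and replicates carry the title numbers. Symbols on several rows (24) kept the row with the highest total under the plain name. Every pair of libraries differed by more than counting noise (chi-square per gene at least 57.5).

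The main test was edgeR 4.0.16 in R 4.3.3: a robust quasi-likelihood fit of group over 7 libraries, TMM scaling, default expression filter, Benjamini-Hochberg adjustment, threshold 0.05. Log2 CPM used a prior count of 2. The code was tested on simulated data. Alternatives were other scalings and filters, DESeq2 1.42.0, limma-voom (limma 3.58.1), replicate blocks, covariates, and each library left out. Named genes were the 8 members and, in each other list, the most abundant gene and the 3 smallest p-values; exceptions are marked, and a few genes are not reported here. Members and lists were chosen with earlier results of these data known. Separation on library totals and with libraries left out was added after the data were seen.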

Additional observations from a re-analysis of the deposited data

Results flagged for a closer look

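The lens fibre markers, 6 genes including Crygs and Cryba1, summed to 54762 CPM in AAV-GSTA4 replicate 2, far from the 1475 to 8337 CPM of the other 3 libraries of its group. The gap took 0.871 of the group's range. It was 1 of 40 sets of values examined for an isolated library, where chance isolates about 5%. None of the 8 cholesterol and lipoprotein genes was flagged in this way, although AAV-GFP replicate 3 lay far from its group for some. It was at 52.8 CPM for Abcg1, beside 30.9 and 29.9 CPM, and at 3289 CPM for Apoe, beside 5106 and 5030.5 CPM. AAV-GSTA4 replicate 2 had the lowest Apoe level of its group.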

How the results depend on the processing

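None of the 8 members passed the adjusted threshold in any of the 18 alternatives. Over all genes the count was 0 in the main test, 202 with DESeq2, 241 with macrophage marker level as covariate, 1 with rod marker level (Cyp2f2), and 0 to 1 with a library left out (hGSTA4, without AAV-GSTA4 replicate 3); the causes were not tested. Library numbers do not pair animals in the labels, and same-numbered libraries did not deviate together (correlations -0.128 to 0.0146). With a replicate block by title or library number 1 gene passed (hGSTA4), and Apoe had a log2 fold change of 0.71 or 0.91. Of 144 member values, 129 kept their direction and their side of the threshold, and 15 changed sign, all in genes with differences below their standard errors. Nr1h2 was -0.26 with library totals, -0.0317 with the title block, -0.0389 with the rod covariate, -0.0429 with the macrophage covariate, and -0.0235 to 0.17 with a library left out. Nr1h3 was 0.24 with the macrophage covariate and -0.17 to 0.17 with a library left out. Scarb1 was -0.12 with library totals and -0.0233 with the macrophage covariate. Srebf2 was -0.21 and -0.17 under these settings and -0.0189 to 0.32 with a library left out. Across alternatives Apoe ranged from 0.40 to 0.96, Abca1 from 0.56 to 1.18, Abcg1 from -1.28 to -0.56 and Lpl from -1.33 to -0.27. Depth limits Nr1h3 most among the 8.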
